A study of Mus musculus with 4 samples.

Results

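The proteasome genes of mouse bone marrow were followed across 4 sorted fractions that span blood cell differentiation, from long-term stem cells to lineage-positive cells. Members were all genes on the array whose symbol begins with Psma, Psmb, Psmc, Psmd, Psme, Psmf or Psmg and a number, and 50 of the 20284 named genes met that rule. Psmc3ip and Psme3ip1 match the pattern but encode no proteasome protein, so 48 genes were kept. Of these, 46 were well above background on all 4 arrays. Psma8, the alpha subunit of the testis, and Psmb11, the beta subunit of the thymus, were well above background on none and enter no count. Of the other RefSeq symbols of this pattern, 7 had no probe named here: Psme2b, Psma5-ps, Psmb5-ps, Psmb6-ps, Psmb6-ps2, Psmb7-ps1 and Psmb7-ps2.

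The donors of all fractions were C57BL6 females aged 8 weeks, with no treatment named. LT-HSC, the long-term blood stem cells, were sorted as CD34- c-Kit+ Sca-1+ lineage-negative cells, and ST-HSC, the short-term stem cells, as CD34+ cells of otherwise the same gate. Progenitors were c-Kit+ and lineage-negative, with a gate that the labels leave uncertain since the shared protocol also calls them Sca-1- and adds Lineage+ to its wording. The differentiated fraction was lineage-positive (Lin+), and no label says how many animals were pooled. Each fraction had 1 single-colour array, so no difference given here has a replicate check and none carries a p-value. A member was said to rise or fall only when it differed by at least 2-fold between fractions.

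The proteasome degrades proteins that carry ubiquitin chains. Its 20S core is a stack of alpha and beta rings in which Psmb5, Psmb6 and Psmb7 supply the standard catalytic sites, and a 19S cap of ATPases (Psmc genes) and other subunits (Psmd genes) binds, unfolds and feeds in the substrate. In immune cells and after interferon-gamma the inducible subunits Psmb8, Psmb9 and Psmb10 take the catalytic places and form the immunoproteasome, while Psme1 and Psme2 form the PA28 activator, and peptides cut in this way are loaded on MHC class I. Dedicated chaperones, among them the Psmg proteins, build the core. Blood stem cells are known for a low rate of protein synthesis.

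Levels are log2 values of the processed signal over the 75th percentile of the array, so that 0 is the signal at that percentile. Along the series LT-HSC, ST-HSC, progenitors and Lin+ this percentile was a signal of 192, 217, 137 and 230 intensity units, lowest for progenitors. From 40.9% to 45.9% of probes were well above background, and no spot was saturated. The spot error given by the scanner software was about 0.14 for a level and 0.20 for a difference. It covers neither sorting nor RNA preparation. Of the marker lists, only some tell the fractions apart by detection. All 10 LT-HSC markers were well above background in LT-HSC, against 6 (ST-HSC), 7 (progenitors) and 5 (Lin+) elsewhere. The 4 ST-HSC and 8 progenitor markers were above background on every array. Their summed levels were highest in ST-HSC (564) and in progenitors (5180), although the progenitor markers Kit and Cd34 differed by -0.59 and -1.02 in progenitors against ST-HSC. The Lin+ fraction was a mixture, with a summed level of 7040 for the neutrophil markers and 6990 for the erythroid markers, against 178 and 62.8 in progenitors, and with all 8 B cell markers and all 7 T and NK cell markers above background. The summed level of the T and NK cell markers was 162 in Lin+ cells and 180 in progenitors.

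Most proteasome genes were highest in the progenitor fraction when arrays were scaled to the 75th percentile, though under spike-in scaling fewer were. The highest of the 4 levels lay in progenitors for 39 of the 46 genes, which compares with 40.8% of the 10624 genes measured on all arrays. It lay in Lin+ cells for 4 genes (21.8% of all genes) and in ST-HSC for 3 genes (15.9%), while it lay in LT-HSC for 0 genes (21.6%). The lowest level lay in Lin+ cells for 25 genes (47.8% of all genes) and in LT-HSC for 17, a count for which the share of all genes was not worked out. All 14 genes of the standard 20S core, 5 of the 6 ATPases, 9 of the 11 other 19S subunits, 4 of the 5 immunoproteasome genes and all 7 assembly chaperones peaked in progenitors, whereas all 3 of the other activators and inhibitors peaked in Lin+ cells. Some of these progenitor peaks were within the spot error. Progenitors differed from ST-HSC by 0.07 for Psmb8 and 0.17 for Psme1, and Lin+ cells from progenitors by -0.18 for Psmd9 and -0.04 for Psmd10. The count of progenitor peaks depended on the scaling. It was 33 genes with a percentile over only those probes that all arrays detected (25.6% of all genes), 26 after quantile normalization (28.1%) and 20 when the spike-in controls were set equal (12.7%). Under either of the last 2 settings, 0 of the 5 immunoproteasome genes lay above their ST-HSC level in progenitors.

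**Figure D1:**
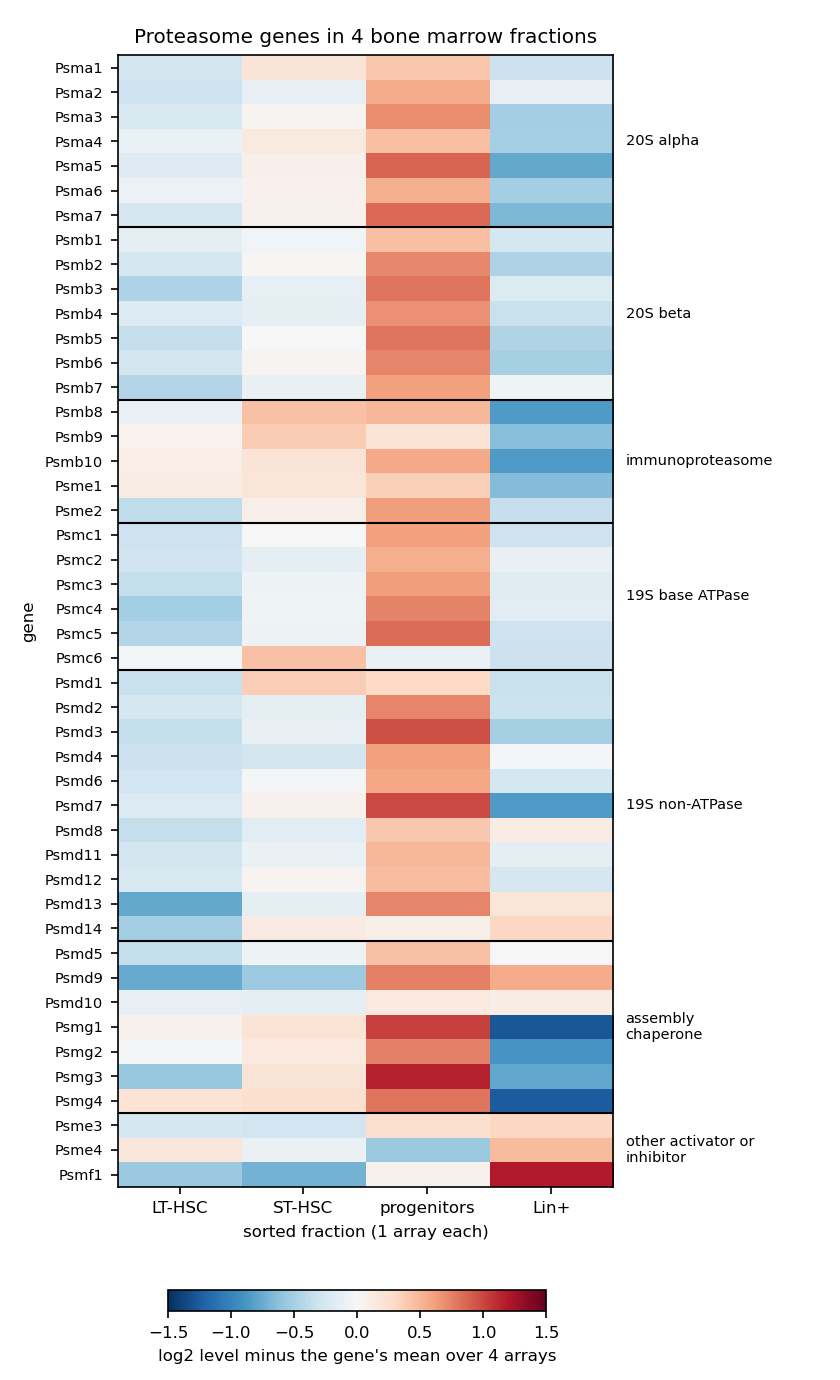
Level of each of the 46 measured proteasome genes in the 4 fractions, as log2 level minus the mean of that gene over the 4 arrays (colour scale, red higher and blue lower), with rows grouped by role and 1 array per fraction. The progenitor column is the highest for 39 genes under the 75th-percentile scaling shown, against 20 genes when the spike-in controls are set equal. The 3 genes in the bottom block are highest in Lin+ cells.

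The genes of the standard complex, the 31 subunits of the 20S core and the 19S cap with Psm symbols, mostly differed in the same direction at each step. Cap subunits named otherwise, such as Adrm1, were counted with the proteasome-associated genes. In ST-HSC against LT-HSC, 0 of the 46 members rose or fell, where 5.81% of all compared genes rose and 9.01% fell. All 31 standard subunits differed in the same direction, with a median of 0.28 and a range of 0.06 to 0.71, beside a median of 0.03 over all measured genes and 52.7% of those genes above 0. Some of these differences, such as 0.06 for Psmb4 and Psmd4, were within the spot error. The number above 0 was 28 of 31 after quantile normalization and 29 of 31 with a percentile over probes detected on all arrays. In progenitors against ST-HSC, 2 members rose, Psmd3 and Psmd9 (10.0% of all genes), and 0 fell (10.2%). The standard subunits had a median difference of 0.69 there, with 28 of 31 above 0, while all genes had a median of 0.21 with 61.5% above 0. Most falls came at the last step, as 20 members fell (26.4% of all genes) and 2 rose, Psme4 and Psmf1 (14.5%), in Lin+ cells against progenitors. The median of the standard subunits was -0.91, beside -0.42 over all genes, and 1 of 31 lay above 0 where 34.7% of all genes did. Across the whole series, in Lin+ cells against LT-HSC, 2 members rose, Psmd9 and Psmf1 (16.1% of all genes), and 2 fell, Psmg1 and Psmg4 (23.2%). The standard subunits had a median of -0.01 there, with 14 of 31 above 0, beside 40.8% of all genes.

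The size of these steps varied with the scaling, while the direction of the median over the 31 standard subunits in the first 3 comparisons did not turn under any setting tried. In progenitors against ST-HSC the median was 0.23 after quantile normalization and 0.07 with spike-in controls set equal, when 19 of 31 lay above 0. It was -0.36 and -0.31 in Lin+ cells against progenitors under the same settings, and 6 members fell under either. The median in Lin+ cells against LT-HSC lay between -0.07 and 0.28 over the settings. Proteasome genes are mostly short and bright on the array, and other genes of that kind differed in the same direction at the later steps. Of the 46 members, 32 were in the brightest quintile of measured genes and 28 were in the 2 quintiles with the shortest genomic span. The median over all genes of the brightest quintile was 0.46 in progenitors against ST-HSC and -0.72 in Lin+ cells against progenitors, and the part of signal and span in the proteasome values was not tested beyond these quintiles. Set against genes of the same quintiles of span and signal, the standard subunits had a median of 0.19 in ST-HSC against LT-HSC, 0.22 in progenitors against ST-HSC, -0.14 in Lin+ cells against progenitors and 0.17 in Lin+ cells against LT-HSC. In bulk fractions such as these, fewer cells that express a gene and less of its RNA per cell cannot be told apart.

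**Figure D2:**
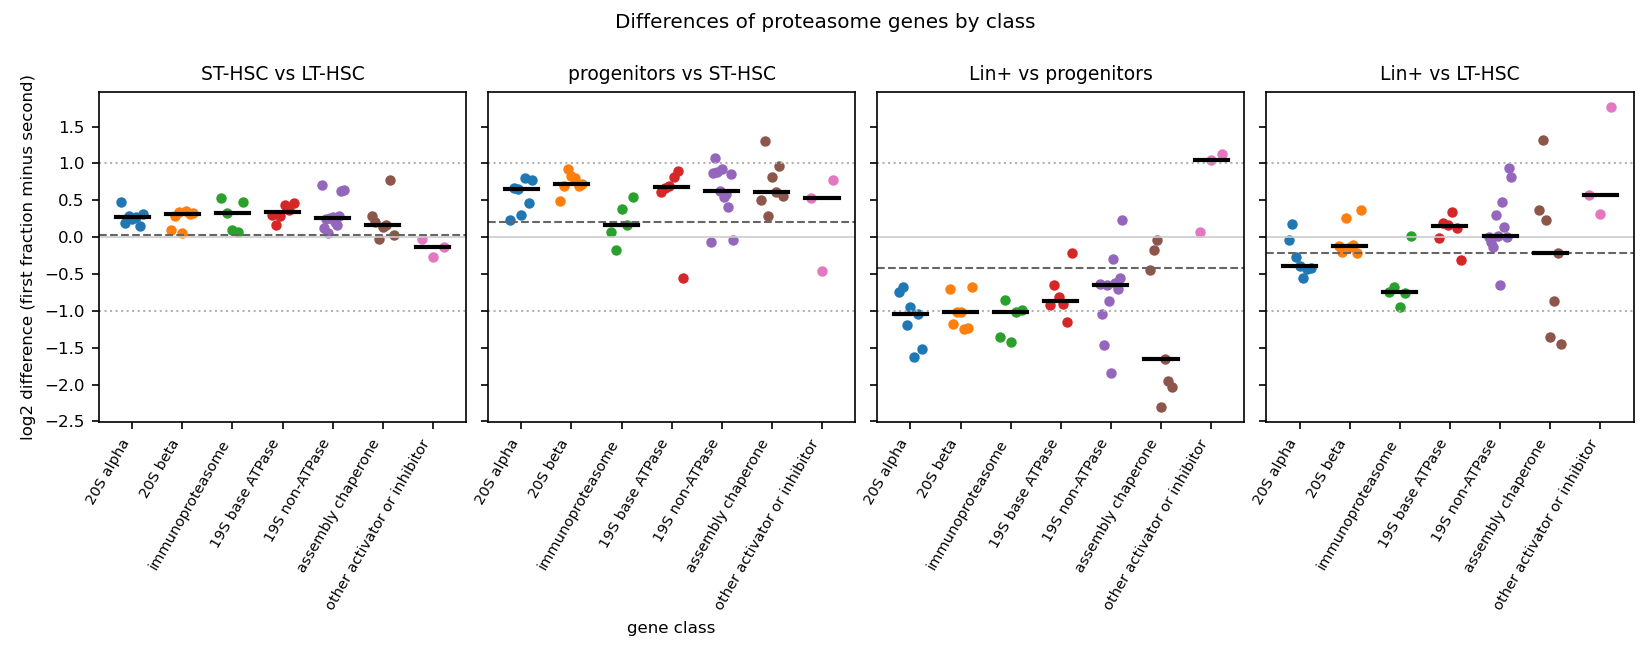
Log2 difference of each proteasome gene in the 4 comparisons (1 point per gene, grouped by role), each given as the named fraction minus the fraction after "vs", with 1 array per fraction under the 75th-percentile scaling. Black bars are medians of a role, dotted lines mark a 2-fold difference and dashed lines the median over all measured genes. In Lin+ cells against progenitors, 20 genes lie below the lower dotted line, among them all 4 Psmg chaperones, and this count is 6 when the spike-in controls are set equal.

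All 14 genes of the standard core were highest in progenitors under the 75th-percentile scaling, while 11 of 14 lay above their ST-HSC level after quantile normalization and 10 of 14 with spike-in controls set equal. The lowest level was in Lin+ cells for 11 genes and in LT-HSC for Psma2, Psmb3 and Psmb7. Its 7 alpha subunits, which form the outer rings and the gate, differed by 0.15 to 0.47 in ST-HSC against LT-HSC and by 0.23 to 0.80 in progenitors against ST-HSC. Of the 7, 4 fell in Lin+ cells against progenitors. Psma5 had levels of 5.79 (LT-HSC), 6.06 (ST-HSC), 6.86 (progenitors) and 5.22 (Lin+), the widest swing of the alpha subunits. It differed by -1.63 ± 0.20 in Lin+ cells against progenitors, which is 3.11-fold, and by -0.56 in Lin+ cells against LT-HSC. Psma7 followed the same course, with 6.74, 7.06, 7.84 and 6.32 along the series and a difference of -1.52 at the last step. Psma3 (6.14, 6.42, 7.07 and 5.87) and Psma6 (5.35, 5.50, 5.96 and 4.92) also fell at that step. The remaining 3 stayed within 2-fold everywhere. Psma2 was the only alpha subunit above its LT-HSC level in Lin+ cells, by 0.18, with levels of 7.01, 7.20, 7.87 and 7.19. Psma1 had levels of 5.68, 6.15, 6.37 and 5.64, and Psma4 had 3.85, 4.10, 4.40 and 3.45, and their differences of 0.23 and 0.30 in progenitors against ST-HSC were the smallest of the alpha subunits.

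The 7 standard beta subunits form the inner rings, and 5 of them fell in Lin+ cells against progenitors. Psmb5, which carries the chymotrypsin-like site, had levels of 7.62 (LT-HSC), 7.98 (ST-HSC), 8.78 (progenitors) and 7.53 (Lin+). Psmb6, with the caspase-like site, had 7.25, 7.57, 8.26 and 7.03 along the series. Psmb7, with the trypsin-like site, had 3.53, 3.86, 4.58 and 3.91. The step into Lin+ cells was -1.25 for Psmb5 and -1.23 for Psmb6, both past 2-fold, but -0.67 for Psmb7, which did not pass. Over the whole series, Lin+ cells against LT-HSC, Psmb7 differed by 0.37, Psmb5 by -0.10 and Psmb6 by -0.22. The structural subunits Psmb2 (2.81, 3.09, 3.79 and 2.61), Psmb3 (6.73, 7.07, 8.00 and 6.99) and Psmb4 (7.33, 7.39, 8.22 and 7.20) fell at the same step. Psmb1 did not pass the 2-fold rule in any comparison, with 5.56, 5.66, 6.15 and 5.44. Before any scaling, Psmb6 had an intensity of 29100 (LT-HSC), 41400 (ST-HSC), 42200 (progenitors) and 30100 (Lin+). The unscaled signal of ST-HSC and progenitors was thus nearly alike, and their difference of 0.69 followed from the lower percentile of the progenitor array.

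The inducible subunits did not keep step with the core. This contrast sets genes of the same 2 arrays against each other, so any constant that scales an array cancels out of it. In ST-HSC against LT-HSC the 5 immunoproteasome genes had a median difference of 0.33, which is 0.05 above the median of the 14 standard core genes. In progenitors against ST-HSC their median was 0.17, a gap of -0.52 to the core, and 0 of the 14 core genes lay below it. At the step into Lin+ cells the medians were alike, at -1.01 for the inducible genes and -1.03 for the core. From end to end, in Lin+ cells against LT-HSC, the inducible genes had a median of -0.75 and the core -0.16, a gap of -0.58. Against genes of the same span and signal the inducible median was -0.53 in that comparison and -0.41 in progenitors against ST-HSC.

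Promoters are shown for inducible and standard partners of the same catalytic site, to set the letters beside genes that parted in level. The sequences are the 250 bases before the annotated start in RefSeq, build GRCm38.p6, read 5′ to 3′ on the strand of the gene, and capitals mark the motifs searched. Psmb8 and Psmb5 are the partners of the chymotrypsin-like site, at chr17:34197945-34198194 (+ strand) and chr14:54617996-54618245 (- strand). Psmb9 and Psmb6 are the partners of the caspase-like site, at chr17:34187331-34187580 (- strand) and chr11:70525107-70525356 (+ strand).
Psmb8: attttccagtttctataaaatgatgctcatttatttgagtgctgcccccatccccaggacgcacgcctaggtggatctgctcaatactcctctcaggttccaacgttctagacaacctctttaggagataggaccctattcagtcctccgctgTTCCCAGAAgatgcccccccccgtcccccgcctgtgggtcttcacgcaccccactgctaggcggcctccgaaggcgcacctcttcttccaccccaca
Psmb5: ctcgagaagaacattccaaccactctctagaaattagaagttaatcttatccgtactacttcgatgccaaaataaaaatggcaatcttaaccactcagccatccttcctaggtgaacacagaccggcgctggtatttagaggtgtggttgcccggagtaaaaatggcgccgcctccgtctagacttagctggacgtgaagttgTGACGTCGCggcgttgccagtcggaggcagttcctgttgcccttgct
Psmb9: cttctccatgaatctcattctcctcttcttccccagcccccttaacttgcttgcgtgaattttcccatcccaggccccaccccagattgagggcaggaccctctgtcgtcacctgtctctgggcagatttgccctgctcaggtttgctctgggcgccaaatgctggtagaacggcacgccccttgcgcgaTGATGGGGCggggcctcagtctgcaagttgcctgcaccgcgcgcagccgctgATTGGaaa
Psmb6: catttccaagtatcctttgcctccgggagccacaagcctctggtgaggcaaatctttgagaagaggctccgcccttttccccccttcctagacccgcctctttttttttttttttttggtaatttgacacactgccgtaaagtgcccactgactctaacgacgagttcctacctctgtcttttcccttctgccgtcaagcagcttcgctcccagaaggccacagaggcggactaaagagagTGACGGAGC

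The motifs were the gamma-activated sequence TTCNNNGAA, the interferon-stimulated response element core GAAANNGAAA bound by IRF factors, the antioxidant response element core TGANNNNGC read by the Nrf factors, and CCAAT, the NF-Y box, each sought on both strands, and no copies overlap in the sequences above. Of the 48 genes, 40 had a promoter in the table, with 43 promoters in all. The gamma-activated sequence stood in the Psmb8 promoter 97 to 89 bases before the start, and in 1 of the 6 promoters of inducible genes, beside 7.02% of all 32851 promoters. The response element core was in 0 of those 6 and in 2.98% of all promoters. The antioxidant core lay 47 to 39 bases before the start of Psmb5, 9 to 1 before that of Psmb6 and 60 to 52 before that of Psmb9. It was in 10 of 27 promoters of standard 26S genes, 2 of 6 of inducible genes and 35.2% of all promoters. CCAAT was in 10 of 27, 1 of 6 and 33.8%, and the copy in Psmb9 lies on the opposite strand at 8 to 4 bases before the start. These shares describe letters and name no bound factor.

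Psmb8 is the inducible partner of Psmb5. Its level was 5.67 (LT-HSC), 6.21 (ST-HSC), 6.27 (progenitors) and 4.92 (Lin+). The difference of 0.53 between ST-HSC and LT-HSC exceeded that of all 14 core genes, and the 0.07 between progenitors and ST-HSC was below all 14. The nearest core gene in both was Psma1, at 0.47 and 0.23, within the spot error of Psmb8. Psmb8 then fell by 1.35 in Lin+ cells against progenitors, close to the 1.25 of Psmb5. Relative to Psmb5, Psmb8 differed by 0.18 ± 0.29 in ST-HSC against LT-HSC, by -0.73 ± 0.29 in progenitors against ST-HSC and by -0.65 ± 0.29 in Lin+ cells against LT-HSC, where ± combines the spot errors of the 4 values. The pair therefore parted at the progenitor step and stayed apart.

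Psmb9, the inducible partner of Psmb6, had levels of 5.71, 6.04, 5.87 and 5.02 along the series and was the only immunoproteasome gene that peaked in ST-HSC, by a margin over progenitors within the spot error. It differed by -0.17 in progenitors against ST-HSC, where Psmb6 differed by 0.69, and the contrast of -0.86 ± 0.29 was the largest of the 3 pairs at that step. At the next step the pair moved the other way by 0.38 ± 0.29, and in Lin+ cells against LT-HSC the contrast was -0.46 ± 0.29. Psmb10, the inducible partner of Psmb7, had 7.45, 7.54, 7.92 and 6.50 and fell by 1.42 in Lin+ cells against progenitors. Its contrast with Psmb7 was -0.24 and -0.34 (± 0.29 each) at the first 2 steps, within about 1 spot error, and -0.75 at the step into Lin+ cells. From end to end it reached -1.32 ± 0.29, so the ratio of Psmb10 to Psmb7 was 2.51-fold lower in Lin+ cells than in LT-HSC. Psmb10 itself differed by -0.95 there and Psmb7 by 0.37, in opposite directions.

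The PA28 partners differed from each other. Psme1 had levels of 6.51 (LT-HSC), 6.58 (ST-HSC), 6.75 (progenitors) and 5.74 (Lin+), and fell by 1.01 at the last step. Psme2 had 6.64, 7.11, 7.65 and 6.67. Psme1 differed by -0.76 in Lin+ cells against LT-HSC, and 0 of the 14 core genes lay below it. Psme2 differed by 0.02, and 11 of the 14 core genes lay below it. A second Psme2 probe gave 0.21 for that comparison. The low relative level in Lin+ cells was thus shared by Psmb8, Psmb9, Psmb10 and Psme1 and not by Psme2, although Psme1 and Psme2 lie on chromosome 14 with only Emc9 between them.

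**Figure D3:**
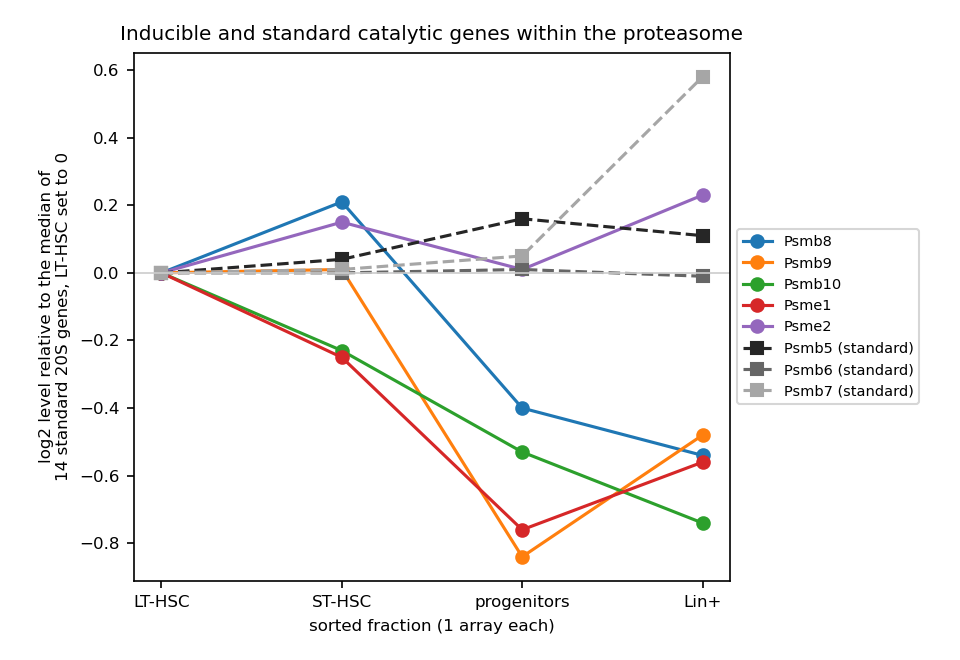
Log2 level of the 5 immunoproteasome genes (circles) and of the 3 standard catalytic genes (squares) relative to the median of the 14 standard 20S genes on the same array, with LT-HSC set to 0, along the 4 fractions (1 array each, no error bars drawn). In Lin+ cells Psmb8, Psmb9, Psmb10 and Psme1 lie between -0.74 and -0.48, while Psme2 lies at 0.23 and Psmb7 at 0.58.

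The 19S cap spread more widely than the core. In progenitors against ST-HSC the SD of the differences over its 17 genes with Psm symbols was 0.43, against 0.20 over the 14 core genes. Its 6 ATPases form the ring that unfolds the substrate, and 5 of them shared the progenitor peak. Psmc5 had levels of 3.91 (LT-HSC), 4.28 (ST-HSC), 5.19 (progenitors) and 4.04 (Lin+). It was the only ATPase past 2-fold in any comparison, at -1.15 in Lin+ cells against progenitors. Psmc4 (4.21, 4.65, 5.46 and 4.54), Psmc1 (6.40, 6.71, 7.32 and 6.40), Psmc2 (5.55, 5.72, 6.39 and 5.74) and Psmc3 (7.34, 7.62, 8.32 and 7.51) were also highest in progenitors. Psmc6 was the exception, with 2.59, 3.05, 2.50 and 2.28. It peaked in ST-HSC and differed by -0.55 in progenitors against ST-HSC, where the other 5 differed by 0.61 to 0.90.

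Of the 11 other cap subunits, 3 fell in Lin+ cells against progenitors and 1 rose in progenitors against ST-HSC. Psmd7, a structural partner of the deubiquitinase in the lid, had levels of 3.81, 4.08, 5.0 and 3.16 and fell by 1.84, the largest drop of any 26S subunit. Psmd3, a scaffold of the lid, had 6.43, 6.68, 7.76 and 6.30, with 1.08 in progenitors against ST-HSC and -1.46 in Lin+ cells against progenitors. Psmd2, a large base subunit and docking site for ubiquitin receptors and carriers, had 4.97, 5.08, 5.96 and 4.91. These 3 ended within 2-fold of LT-HSC. Psmd4 (6.35, 6.40, 7.29 and 6.64), a ubiquitin receptor of the cap, and Psmd6 (3.47, 3.73, 4.34 and 3.49), Psmd8 (4.06, 4.26, 4.82 and 4.53), Psmd11 (2.19, 2.36, 2.96 and 2.33) and Psmd12 (4.55, 4.83, 5.25 and 4.54), all lid subunits, peaked in progenitors without passing the rule.

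A few cap genes departed from that course. Psmd14, the deubiquitinase that strips the chain from the substrate, had levels of 1.61 (LT-HSC), 2.24 (ST-HSC), 2.21 (progenitors) and 2.43 (Lin+). It was the only 26S subunit with its highest level in Lin+ cells, 0.82 above LT-HSC, but its margin over ST-HSC was within the spot error. Psmd13 had 4.11, 4.75, 5.61 and 5.06 and ended 0.94 above LT-HSC. Psmd1, the other large base subunit, had 4.86, 5.57, 5.50 and 4.86, with its highest level in ST-HSC by a margin of 0.07 that is smaller than the spot error. Over the 17 cap genes with Psm symbols, the median difference in Lin+ cells against LT-HSC was 0.13, while that of the 20S core was -0.16. Against genes of the same span and signal the values were 0.32 for the cap, with 15 of 17 above, and 0.01 for the core, with 7 of 14 above.

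The assembly chaperones split by the particle they build. The 4 Psmg genes, which encode the pairs that assemble the alpha ring of the core, all fell in Lin+ cells against progenitors and did so under each of the 12 settings run. Psmg1 had levels of 5.31 (LT-HSC), 5.45 (ST-HSC), 6.27 (progenitors) and 3.96 (Lin+). It fell by 2.31 ± 0.20, the largest fall of any member, and its second probe fell by 2.35. Psmg2, which pairs with Psmg1, had 3.56, 3.73, 4.34 and 2.70 and fell by 1.65. Psmg3 had 3.04, 3.81, 4.77 and 2.83 and fell by 1.95, and its partner Psmg4 had 3.39, 3.42, 3.98 and 1.94 and fell by 2.04. Set against genes of the same span and signal, the median of the 4 genes at that step was -1.40. Psmg1 and Psmg4 also ended more than 2-fold below LT-HSC, at -1.35 and -1.45, and they were the only members lower by that rule in Lin+ cells. Psmg2 differed by -0.87 and Psmg3 by -0.21 in that comparison.

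The 3 chaperones of the 19S base did not follow them. Psmd9 had levels of 1.45, 1.66, 2.96 and 2.77, with 1.30 in progenitors against ST-HSC and 1.32 in Lin+ cells against LT-HSC by its brightest probe. Its second probe gave 0.55 and 0.63, under 2-fold for both. Psmd5 (2.54, 2.83, 3.34 and 2.90) and Psmd10 (1.81, 1.79, 2.08 and 2.04) stayed within 2-fold throughout. These genes differed by -0.18, -0.44 and -0.04 in Lin+ cells against progenitors. A second Psmd10 probe gave -0.58 for that step, and -0.13 in place of 0.23 in Lin+ cells against LT-HSC. Pomp, the chaperone that completes the beta ring and matures the core, is named apart from the Psm genes and had 5.91, 6.04, 6.62 and 5.46. It fell by 1.16 in Lin+ cells against progenitors, as the 4 Psmg genes did.

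The remaining activators and the inhibitor include the 2 members that rose in Lin+ cells against progenitors. Psmf1, known as an inhibitor of the core particle in the test tube, had levels of 0.77 (LT-HSC), 0.62 (ST-HSC), 1.39 (progenitors) and 2.52 (Lin+). It rose by 1.13 ± 0.20 in Lin+ cells against progenitors and by 1.76 in Lin+ cells against LT-HSC, where it had the largest rise of any member. Psme4, the PA200 activator, had 0.19, -0.08, -0.54 and 0.49, and rose by 1.04 in Lin+ cells against progenitors. Its second probe gave 1.99 for that step but disagreed at ST-HSC against LT-HSC, with 0.86 in place of -0.27, and gave 2.14 in place of 0.31 in Lin+ cells against LT-HSC. Psme3, the PA28-gamma activator of the nucleus, had 3.00, 2.98, 3.50 and 3.57 and passed the rule nowhere. Its levels in Lin+ cells and progenitors differed by 0.07, within the spot error.

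**Figure D4:**
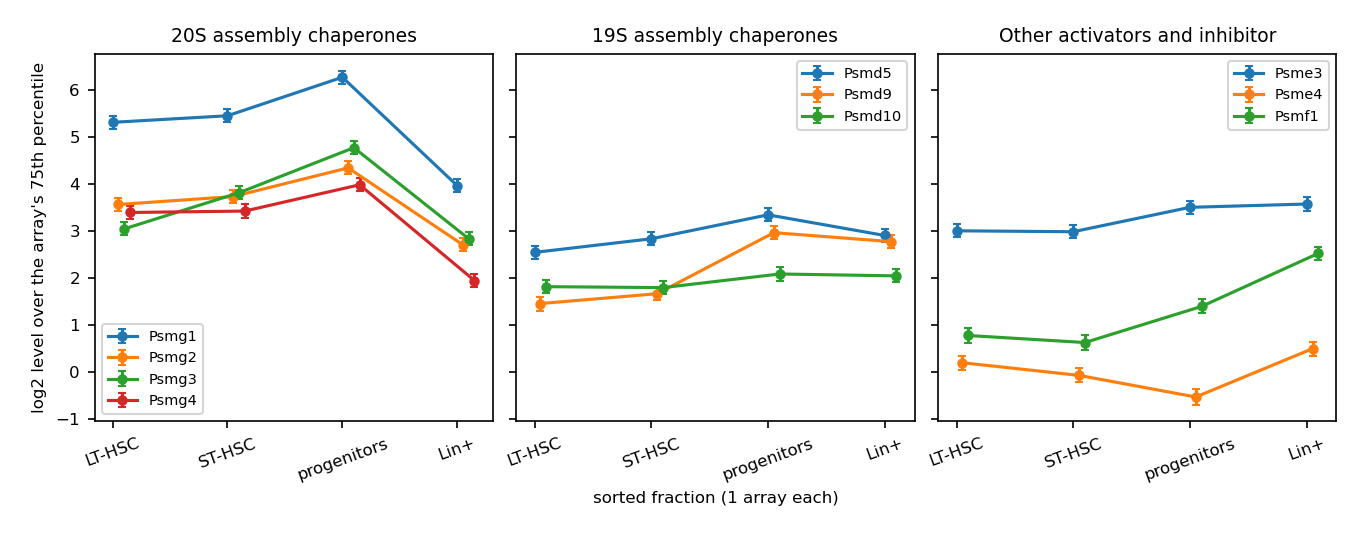
Log2 level over the 75th percentile of each array for the 20S assembly chaperones, the 19S assembly chaperones and the other activators and inhibitor (panels), along the 4 fractions with 1 array each. Bars are the spot error of the scanner software. The 4 Psmg genes fell by 1.65 to 2.31 in Lin+ cells against progenitors, while Psmf1 and Psme4 rose by 1.13 and 1.04.

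Genes that work beside the proteasome were counted from lists of the pathway. Of 17 proteasome-associated genes on the array, 0 rose or fell in the first 2 comparisons (5.81% and 10.0% of all genes rose, 9.01% and 10.2% fell). At the step into Lin+ cells 3 fell, a smaller share than the 26.4% of all genes, and the median of the list was -0.49, beside -0.42 over all genes. The 3 that fell were Pomp, Adrm1 and Rad23b. Adrm1, another ubiquitin receptor of the cap, differed by -1.09 (3.87, 3.97, 4.91 and 3.82 along the series). Rad23b, a carrier of ubiquitinated substrates, differed by -1.23 (2.58, 2.92, 3.54 and 2.31). Ubqln2, another carrier, fell by 1.21 in Lin+ cells against LT-HSC.

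Of 13 genes that regulate proteasome genes, 2 rose and 2 fell in Lin+ cells against progenitors, where 14.5% of all genes rose and 26.4% fell. The list median was -0.07, beside -0.42 over all genes. Nfe2l1, the factor that restores proteasome genes when activity is low, had levels of -1.33, -1.22, -0.92 and -1.37 and passed the rule nowhere. Nfe2l2 had 3.66, 3.68, 3.98 and 3.92. Maff, a small partner of these factors, had 4.22, 2.75, 3.28 and 1.73 and fell in 3 of the 4 comparisons, by 2.49 from end to end. Bach1, a repressor at the same elements, had 2.55, 2.10, 0.92 and 1.87 and fell by 1.18 in progenitors against ST-HSC. Of the NF-Y subunits, Nfya fell by 1.03 in Lin+ cells against LT-HSC and Nfyb rose by 1.02 in Lin+ cells against progenitors. In that last comparison Mafk also rose, by 1.04, and Keap1, which marks Nrf2 for degradation, fell by 1.02. Of 6 ubiquitin and E1 genes, the ribosomal fusion gene Rps27a fell by 1.25 in Lin+ cells against progenitors. Uba6, a second E1 enzyme, fell by 1.85 ± 0.33 in progenitors against ST-HSC. Its signal was faint, at -0.71 in ST-HSC and -2.56 in progenitors, where the floor of the array was -2.87.

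The MHC class I list holds genes that load and present the peptides. Of 12 on the array, 3 fell in Lin+ cells against LT-HSC and 0 rose, with a median of -0.34, beside -0.21 over all genes. That is about the share of all genes that fell (23.2%), while 16.1% of all genes rose. Nlrc5, the transactivator of class I and immunoproteasome genes, had levels of 3.38 (LT-HSC), 2.70 (ST-HSC), 2.14 (progenitors) and 1.19 (Lin+) and fell by 2.20 from end to end, which is 4.58-fold. H2-K1, a class I heavy chain, had 9.11, 8.72, 8.47 and 7.72 and fell by 1.39 in the same comparison. H2-D1, another heavy chain, did not fall and differed by 0.11 there. Of the 12 genes, 3 lay above 0 in that comparison and 9 below. Tap2, a subunit of the peptide transporter, had 6.42, 6.77, 6.58 and 5.27 and fell by 1.14 in Lin+ cells against LT-HSC. Tap1, the other subunit, had 1.48, 1.74, 1.50 and 1.44. On chromosome 17 the RefSeq order is Psmb9, Tap1, Psmb8, Tap2, so 4 genes of this pathway adjoin. Tap1 differed by -0.04 in Lin+ cells against LT-HSC, where Psmb9, Psmb8 and Tap2 differed by -0.68, -0.75 and -1.14. Calr, a loading chaperone that also serves the endoplasmic reticulum at large, had 5.24, 6.06, 7.07 and 5.19, a progenitor peak like that of the core. It rose by 1.02 in progenitors against ST-HSC and fell by 1.88 in Lin+ cells against progenitors, and Erap1, which trims peptides, fell by 1.00 in progenitors against ST-HSC.

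Of 12 interferon-gamma pathway genes on the array, 10 could be compared in Lin+ cells and LT-HSC. Ifng, Ifngr2 and Irf8 rose and 0 fell, beside 16.1% and 23.2% of all genes, and the median of the 8 measured ones was 0.10. Ifng itself was well above background in Lin+ cells only, where it was at least 9.67-fold higher than in LT-HSC. Irf1, which drives inducible subunits in other cells, had levels of 6.49, 6.30, 6.24 and 5.88. Irf8, a factor of the myeloid and lymphoid lineages, had 2.54, 5.43, 6.58 and 6.12 and was 11.9-fold higher in Lin+ cells than in LT-HSC. Socs1, an inhibitor of the pathway, had 2.47, 1.38, 0.62 and 2.87 and rose by 2.25 in Lin+ cells against progenitors. The receptor gene Ifngr1 had 5.31, 5.02, 6.57 and 5.44, and Jak1, the kinase bound to it, had 5.21, 5.13, 3.85 and 4.99, so the pair moved in opposite directions at both of the later steps. None of these lists shares array probes with the proteasome genes, but all values come from the same 4 RNA samples.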

How the data were processed

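Total RNA of each fraction, extracted with TRIZOL LS and an RNeasy micro kit, was amplified from 10 ng with spike-in controls and labelled with Cy3, per the labels' protocols. Per the file headers, the spot values are linear intensity, background-subtracted by the scanner software and with no scaling between arrays. That software was Agilent Feature Extraction 10.7.1.1, per the submitters' processing notes. All 4 arrays lay on 1 slide. The authors' deposited value table gives each probe as a ratio of its intensity to an array constant (191, 217, 137 and 230), which held within 1% for 100% of 55246 probes with a single spot. Its column medians were 0.0619, 0.063, 0.0704 and 0.0738, so its scale, centring and direction are known, and it served as an alternative.

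Control spots and outlier flags were left out, spots of a probe were averaged on the log2 scale, and each array's 75th percentile was subtracted. Of 55681 probes, 3 were dropped, and 26762 (48.1%) were named by accession through the RefSeq table of assembly GRCm38.p6. That gave 20284 genes, of which 48 are proteasome genes. The array design uses build mm9, so coordinates come only from the RefSeq promoter table. The brightest probe stood for a gene, and 11 members had more than 1. Probes below background were held at a floor, the lowest detected value of the array (-2.94, -3.39, -2.87 and -3.47 along the series), or at their own value where higher, and such a fold is a lower bound. Members at least 2-fold different were called, and precision is limited by how few arrays there were. The fold rule was tested on simulated data made from the LT-HSC values with spot error as the only noise. That simulation covers neither scaling between arrays nor sorting nor RNA preparation, so it cannot show how reliable the calls are.

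The members and lists were chosen with earlier results of these data known. Values on all arrays are given for the immunoproteasome genes, the standard catalytic genes, the called members and the extremes of each class, and pathway lists by counts with up to 6 called genes, some of which are not reported here. The alternatives were other scalings (detected probes, median set to 0, quantile, spike-in), normexp with an offset of 50, the mean of probes, no floor, measured pairs only, quintiles of genomic span, and the deposited table. Quintiles of mean signal were added after seeing the data. The mean-signal column planned for normexp was not used here, and the median signal and median background took its place. Tools were Python 3.11.15, numpy 2.4.6, pandas 2.3.3, R 4.3.3 and limma 3.58.1.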

Additional observations from a re-analysis of the deposited data

How the results depend on the processing

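The 28 member differences past 2-fold kept their sign under each alternative, and 12 to 28 of them stayed past 2-fold. The gap between inducible and standard core genes, the filters on background and the authors' deposited table moved no main result beyond its limits. No paired analysis was possible because each fraction had 1 array, and no replicate could be left out. In ST-HSC against LT-HSC, spike-in scaling gave 2 members higher and a standard 26S median of 0.59. In progenitors against ST-HSC, 1 member was higher under the detected-probe percentile, the median set to 0, quantile, normexp, the mean of probes, and quintiles of span or signal, and 0 under spike-in scaling, which put 2 lower. The 26S median there was 0.43 with detected probes, 0.48 with the median at 0, 0.23 with quantile, 0.07 with spike-in, 0.47 with normexp, and 0.40 and 0.25 within quintiles of span and signal. In Lin+ cells against progenitors, the number lower was 9 with detected probes, 9 with the median at 0, 6 with quantile, 6 with spike-in, 12 with normexp, and 6 and 5 within quintiles of span and signal, the 5 being Psmd7 and the 4 Psmg genes. Normexp left 1 higher. The 26S medians in that order were -0.52, -0.50, -0.36, -0.31, -0.69, -0.37 and -0.20. In Lin+ cells against LT-HSC, 4 were higher with the median at 0, spike-in and quintiles of signal, and the 26S median was 0.20 with the median at 0, 0.28 with spike-in and 0.22 within quintiles of span. Members highest in progenitors numbered 33 with detected probes, 26 with quantile, 20 with spike-in and 36 with normexp. Scaling by constants shifts every gene alike, and the cause of the other moves was not tested.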
